A study of Ovis aries with 6 samples.

Results

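miR-143 was the most abundant miRNA in every fetal rumen library and is described here alone, as the 1 entry named oar-miR-143 among the 1253 miRNA entries listed for each library. It was followed through 6 libraries of small RNA, each from the rumen of 1 male Hu sheep fetus. The UN group was 3 fetuses of ewes under restricted feeding (labelled R-TR), and the CON group was 3 fetuses of ewes under normal feeding (labelled R-CON). All animals carry the same wild type label, and the labels give 115 days of gestation for both groups. In the paper's methods this is the day on which restriction began, and fetuses were collected later in gestation, so the fetal age at collection is uncertain here. The labels name no cell type, and the paper writes of rumen tissues but heads its mRNA methods with rumen epithelium. Which rumen layers each library holds is therefore uncertain, and fewer cells of a type and less RNA per cell cannot be told apart.

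The rumen wall holds a stratified epithelium over connective tissue and layers of smooth muscle. miR-143 is a conserved miRNA known from smooth muscle, where in mammals it is made from the same host transcript as miR-145 and takes part in keeping the contractile state. miRNAs repress the mRNAs they pair with, mainly through the seed, which is bases 2 to 8 of the mature strand. Small RNA libraries are counted as parts of a whole, so a miRNA that takes a large share lowers the value per 1000000 of all others even when their own proportions stay as they were. For this reason each other miRNA was also given as reads per 1000000 reads other than those of miR-143, here called the rescaled level.

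The sequences below come from the miRNA table supplied with the study, with the seed in capitals. They show miR-143, the 1 entry antisense to it, IDs whose levels ran with it or against it by the rule below, and miR-148a with miR-152 of the same seed.
oar-miR-143: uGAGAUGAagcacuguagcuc
novel_miR_51: gAGCUACAgugcuucaucuc
oar-let-7b: uGAGGUAGuagguuguguggu
oar-let-7a: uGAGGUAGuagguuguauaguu
novel_miR_824: cACUAGAUugagagcuccugga
novel_miR_395: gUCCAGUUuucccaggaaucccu
novel_miR_654: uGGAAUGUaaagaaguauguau
oar-miR-127: aUCGGAUCcgucugagcuuggcu
oar-miR-148a: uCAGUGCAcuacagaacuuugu
oar-miR-152: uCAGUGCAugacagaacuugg
No other entry had the seed GAGAUGA of miR-143, and none had its 21-base sequence among the 1029 distinct sequences of the 1253 entries. The longest run that any entry other than novel_miR_51 shared with miR-143 or its reverse complement was 9 bases, so its reads had no near copy to be split with. In the RefSeq gene table of the assembly ARS-UI_Ramb_v3.0, MIR143 lies between the protein-coding genes IL17B and CSNK1A1 and is overlapped by the long noncoding RNA LOC114114896. The build of the deposited values could not be matched to that assembly, and no coordinates are given.

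miR-143 took 37.7%, 43.8% and 48.5% of the assigned reads in UN replicates 1, 2 and 3, against 42.3%, 29.5% and 50.0% in CON replicates 1, 2 and 3. The lowest and the highest share were both in CON, and the UN values lay between them. These shares rest on 7057852, 8966623 and 13123796 miR-143 reads in UN and on 10397601, 5480747 and 17786915 in CON. The Wilson 95% interval of each share is at most 0.0439 percentage points wide, which covers counting error only, so the spread between libraries was far beyond counting error. The mean share was 43.3% ± 5.43 in UN and 40.6% ± 10.4 in CON (SD, n = 3 each).

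**Figure D1:**
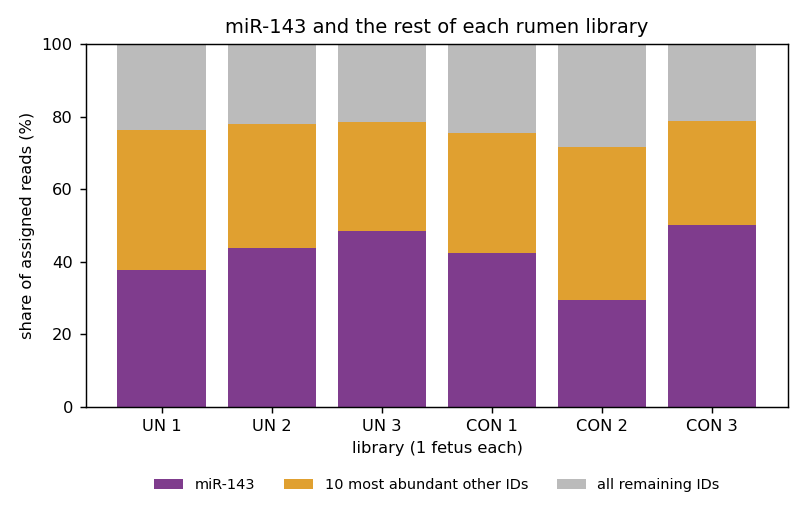
Share of assigned reads (%) in each library, UN left of CON, split into miR-143, the 10 most abundant other IDs and all remaining IDs. miR-143 takes 37.7% to 48.5% in the UN libraries and 29.5% to 50.0% in the CON libraries, so the groups overlap.

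Restricted feeding was set against normal feeding first on the share. The difference between UN and CON was within the spread between fetuses (two-sided exact permutation test, p = 0.80, where 3 against 3 libraries cannot go below 0.10). On the log2(RPM + 1) scale, with RPM the reads per 1000000 listed reads, the difference UN minus CON was 0.12 with a standard error of 0.18 (limma, adjusted p = 0.92). Among the 567 IDs tested in that fit 0% passed an adjusted p of 0.05. Without CON replicate 2, which had the lowest share, the difference was -0.094.

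Set against the rest of its own library, miR-143 gave 0.605, 0.779 and 0.942 reads per other read in UN, against 0.732, 0.418 and 1.00 in CON. In CON replicate 3 it had as many reads as all other IDs together. The mean was 0.775 ± 0.169 in UN and 0.717 ± 0.292 in CON (SD, n = 3 each). On the log2 scale UN minus CON was 0.18 (exact permutation test, two-sided, p = 0.70), and -0.17 without CON replicate 2. Between the lowest and the highest library the ratio differed 2.39-fold, both of them CON.

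The second most abundant ID was miR-148a in all 6 libraries. miR-148a shares its seed with miR-152, and both have been described as repressors of a DNA methyltransferase. miR-143 exceeded it 3.18-, 4.30- and 7.52-fold in UN, against 4.47-, 2.30- and 8.20-fold in CON. The order of the libraries by this fold was that of the miR-143 ratio but for UN replicate 2 and CON replicate 1, which changed places.

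novel_miR_51, whose sequence is the exact reverse complement of bases 2 to 21 of miR-143, had 14, 16 and 33 reads in UN and 34, 12 and 36 in CON. Set per 1000000 miR-143 reads this is 1.98, 1.78 and 2.51 in UN, against 3.27, 2.19 and 2.02 in CON. The mean was 2.09 ± 0.377 in UN and 2.49 ± 0.677 in CON (SD, n = 3 each), and the groups overlapped. Whether reads of the opposite strand were assigned by strand is not given in the sources used here. No entry carries the name miR-145. The numbered entries were not matched to named miRNAs, so miR-145 may be among them and its level is not given by name here.

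The miR-143 ratio went with the depth of the libraries. UN libraries held 18731340, 20480062 and 27059374 assigned reads, and CON libraries 24598457, 18584326 and 35555822. Across the 6 libraries the log2 ratio correlated with log2 assigned reads (Pearson r = 0.82, exact permutation p = 0.043, Spearman rho = 0.94, p = 0.017). Without CON replicates 2 and 3, the libraries farthest from the median ratio, r was 0.82 over the other 4. This is 1 relation, set apart from the 76 below, and the part of depth in the results below was not tested beyond the values given. Assigned reads include those of miR-143, so at a given number of other reads a higher ratio raises them by construction. The other reads alone were 11673488, 11513439 and 13935578 in UN, and 14200856, 13103579 and 17768907 in CON. A relation of the ratio to the other reads alone was not tested.

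Among the other IDs, 76 averaged at least 1000 reads per 1000000 other reads, and they held 95.9% to 96.3% of those reads in each library. The 10 most abundant, in order of mean level, were miR-148a, let-7i, miR-26a, miR-21, novel_miR_33, miR-99a, miR-27a, miR-10a, let-7f and let-7g. For each of the 76, log2(rescaled level + 1) was correlated over the 6 libraries with the log2 miR-143 ratio, and r of at least 0.8 was called moving with miR-143 and r of at most -0.8 moving against it. Before rescaling, 67 of the 76 RPM values had a negative r and 9 a positive one, with a median of -0.72; 28 were at or below -0.8 and none was at or above 0.8. After rescaling, 33 had a negative and 43 a positive r, with a median of 0.13. RPM carries the reads of miR-143 in its total, so a higher miR-143 share lowers the RPM of all others by construction. Rescaled levels also sum to a fixed total, so IDs that run one way are matched by others that run the opposite way.

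**Figure D2:**
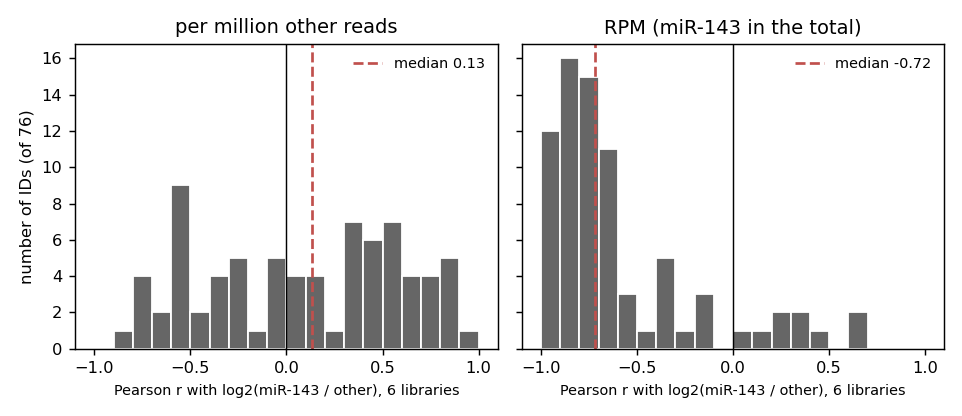
Number of abundant IDs (of 76) by their Pearson r with the log2 miR-143 ratio over 6 libraries (n = 6, 3 UN and 3 CON), for rescaled levels (left) and RPM (right); dashed lines mark the medians, 0.13 and -0.72. The mass of negative r in RPM is absent once miR-143 is taken out of the total.

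The median spread also fell with rescaling. The median SD of log2 level over the 6 libraries was 0.18 for rescaled levels and 0.25 for RPM, and 60 of the 76 IDs had the smaller SD after rescaling. The log2 miR-143 ratio itself had an SD of 0.46, and 7 of the 76 varied more than that. The median abundant ID differed 1.38-fold between its lowest and highest library.

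Moving with miR-143 were 6 of the 76 IDs (7.89%), and 1 moved against it (1.32%). None of the 76 relations passed Benjamini-Hochberg adjustment over the 76: the smallest adjusted p was 0.475 for r and 0.317 for rho (exact permutation over 720 pairings), and 7 had an unadjusted p under 0.05 for r. These likenesses are therefore a description of these libraries. Unlike the median ID, the 6 that moved with miR-143 had a larger SD of log2 level after rescaling than in RPM. It was 0.19 against 0.067 for let-7b, while for miR-127 it fell to 0.14 from 0.31 in RPM.

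let-7b, of the let-7 family that times developmental transitions in animals, was closest. Its rescaled level was 8712, 9992 and 11169 in UN, against 10146, 8702 and 12146 in CON. It followed the order of the miR-143 ratio except that UN replicate 2 and CON replicate 1 changed places (r = 0.91, exact permutation p = 0.0097, rho = 0.94, p = 0.017). Without CON replicates 2 and 3, r was 0.97, while in RPM the same reads gave r = -0.12. The RPM of let-7b was nearly even, at 5429, 5617 and 5752 in UN and 5857, 6135 and 6070 in CON. Ratio and rescaled level share the other reads as denominator, so an ID of even RPM rises with the ratio by construction. let-7a had 16134, 18342 and 21887 in UN, against 21790, 16562 and 22987 in CON. Its r was 0.83 (exact permutation p = 0.033, rho 0.89, p = 0.033), 0.77 without CON replicates 2 and 3, and 0.01 in RPM.

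The seed GAGGUAG was the widest seed family of the 76, with 7 IDs. Of these, let-7b, let-7a, let-7c (0.80, just below the line), let-7f (0.72) and let-7g (0.55) had a positive r, but let-7i, the most abundant of the family, had -0.10. let-7i had 68168, 78050 and 78838 in UN, against 56125, 73802 and 63359 in CON. The range over the 7 was -0.10 to 0.91, with a median of 0.72, beside a median of 0.13 over all 76, so IDs of 1 seed differed widely. Among the 7 named let-7 members of all levels, 6 had a positive r.

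novel_miR_824, novel_miR_395 and novel_miR_654 were the other IDs with r of at least 0.8, with novel_miR_696, which has the same sequence as novel_miR_654 and practically the same reads. They carry no name in the files beyond their number. novel_miR_395 had 10966, 14883 and 16596 in UN, against 15695, 12310 and 16712 in CON (r = 0.81, exact permutation p = 0.046, rho 0.89, p = 0.033; 0.89 without CON replicates 2 and 3). novel_miR_654 had 3031, 3572 and 6859 in UN, against 6662, 2965 and 7332 in CON (r = 0.80, exact permutation p = 0.032, rho 0.94, p = 0.017; 0.70 without CON replicates 2 and 3). It fell into a low set of UN replicates 1 and 2 with CON replicate 2, and a high set of the other three libraries, and it changed more steeply than the ratio, by 1.09 log2 units per unit. novel_miR_824 had 944, 1026 and 1415 in UN, against 1007, 934 and 1383 in CON (r = 0.83, exact permutation p = 0.046, rho 0.94, p = 0.017; 0.91 without CON replicates 2 and 3). In RPM, r was 0.14 for novel_miR_395, 0.66 for novel_miR_654 and 0.31 for novel_miR_824, so the shared denominator bears on these values too.

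miR-127, a miRNA of the imprinted DLK1-DIO3 region, was the 1 ID that moved against miR-143. Its rescaled level was 22502, 21272 and 21777 in UN, against 23622, 25454 and 19189 in CON. CON replicate 2, with the least miR-143, had the most miR-127, and CON replicate 3, with the most miR-143, had the least (r = -0.86, exact permutation p = 0.033, rho -0.89, p = 0.033). Without those libraries r was -0.42, so the relation rests on them.

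miR-148a, the second most abundant ID, lay just short of the line at -0.78. It had 189923, 181254 and 125304 in UN, against 163655, 181899 and 122111 in CON, and so was lowest in UN replicate 3 and CON replicate 3, the libraries richest in miR-143 (exact permutation p = 0.071, rho -0.89, p = 0.033; r = -0.87 without CON replicates 2 and 3). miR-152, with the same seed CAGUGCA, ran the other way at 0.68, with 5492, 6066 and 6053 in UN and 7341, 5404 and 7367 in CON. novel_miR_712, the third ID of that seed, had r = 0.22. The remaining IDs among the 6 lowest were novel_miR_25 at -0.78, novel_miR_65 at -0.77, miR-493-3p at -0.70 and miR-374b at -0.65.

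**Figure D3:**
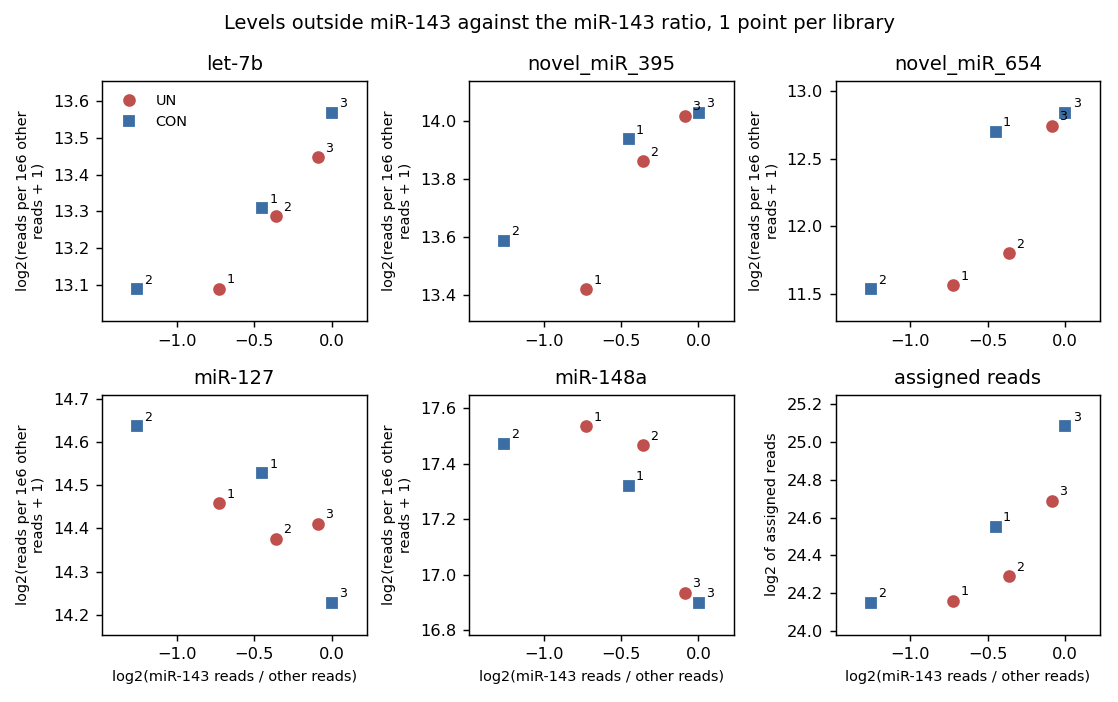
Log2(rescaled level + 1) of 5 IDs, and log2 assigned reads, against the log2 miR-143 ratio; each point is a library (circles UN, squares CON, numbers give the replicate). let-7b, novel_miR_395 and novel_miR_654 rise with the ratio (r = 0.91, 0.81 and 0.80), miR-127 and miR-148a fall (r = -0.86 and -0.78), and assigned reads rise (r = 0.82). Assigned reads include those of miR-143.

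Depth moved with these IDs as well. All 6 IDs that moved with miR-143 had r of at least 0.8 with log2 assigned reads (0.96 for let-7b), while 12 of the 76 reached 0.8 and 5 reached -0.8. With log2 assigned reads as a covariate, r of let-7b fell to 0.76, of let-7a to 0.32, of novel_miR_395 to 0.41, of novel_miR_654 to 0.25 and of novel_miR_824 to 0.41. For miR-127 it was -0.66 and for miR-148a -0.06. With this covariate 3 IDs moved with miR-143 and 5 against it, none of them among the 7 above. Assigned reads include those of miR-143, and over 6 libraries the miR-143 ratio and the depth cannot be told apart.

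By named members of cell type lists, miR-133 of striated muscle had 257, 410 and 543 rescaled reads in UN, against 402, 331 and 537 in CON, with r = 0.79 (0.85 with log2 assigned reads). It was the 1 of 5 striated muscle names that an entry carried. Of 7 epithelial names 3 were present: miR-200a (r = -0.38), miR-200b (0.17) and miR-200c (0.51). miR-199a-3p of mesenchyme had r = -0.52, miR-194 of endoderm 0.63, and miR-150 of blood cells 0.24 at no more than 8.47 rescaled reads in UN and 10.4 in CON. No entry carried a name of the endothelial or the neuronal and glial lists, so those cells were not checked. Of the 2 smooth muscle names only miR-143 was found. The lists were matched by name alone, and since members may be listed under a number, a name that was not found does not mean that the miRNA was absent. The summed level of the 3 epithelial miRNAs was 21331 to 22779 in UN, below its 25979 to 29005 in CON, while 10.2% of all tested IDs lay lower in UN without overlap on this scale. With TMM factors, a scaling of this sum chosen after seeing the data, it was 21699 to 25181 in UN and 24839 to 27496 in CON, so the groups overlapped. miR-200c overlapped on both scales, and miR-200a with TMM factors (9631 to 12489 in UN, 11714 to 12184 in CON). The sum leaves out novel_miR_962, which begins with the whole sequence of miR-200b. Its mean rescaled level was 20187 in UN and 24573 in CON.

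UN and CON were then compared for the other IDs on rescaled levels. Of 566 IDs tested, 1 was higher in UN (0.177%) and 0 lower (0%) at an adjusted p under 0.05 in limma. At an unadjusted p under 0.05, 5 were higher (0.883%) and 29 lower (5.12%) in UN. On the recovered reads edgeR called 1 higher and 0 lower, and DESeq2 2 higher and 2 lower, at an adjusted p under 0.05. In RPM, by the same test, none passed in either direction, with 4 higher and 25 lower at the unadjusted p. The median log2 difference over all IDs was -0.08 after rescaling, -0.12 in RPM and 0.01 with TMM factors, which set the bulk of IDs equal. With TMM the unadjusted calls were 17 higher and 12 lower, so the balance of directions depends on the scaling.

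The ID that passed was novel_miR_529, of low level (75 to 205 reads a library). Its rescaled level was 15.4, 14.7 and 14.7 in UN, against 5.99, 5.88 and 4.22 in CON, so the groups did not overlap. The log2 difference was 1.34 with a standard error of 0.19 (limma, adjusted p = 0.043), and in RPM it was 1.19 (adjusted p = 0.13). The adjusted p was 0.11 to 0.26 when any single library was left out, so the call depends on every library. The log2 difference in those fits was 1.20 to 1.41. novel_miR_879 had the smallest p among lower IDs. It had 860, 883 and 857 rescaled reads in UN, against 1328, 1288 and 1258 in CON, a log2 difference of -0.57 with a standard error of 0.12, and did not pass (limma, adjusted p = 0.25). Its spread within groups was narrow after rescaling, at 867 ± 13.9 in UN and 1291 ± 35.2 in CON, against 491 ± 47.6 RPM in UN and 768 ± 140 RPM in CON (SD, n = 3 each). It was picked by its p on rescaled levels, which favours a narrow spread there, so this contrast does not measure what rescaling does. Of the others among the 5 smallest p higher in UN, novel_miR_76 differed by 0.84, novel_miR_527 by 0.63 and novel_miR_170 by 0.56 on the log2 scale. Of those lower, novel_miR_775 differed by -1.22, novel_miR_641 by -0.61 and novel_miR_1033, which has the same sequence, by -0.49. None of these passed the adjusted threshold (limma, adjusted p of 0.25 to 0.71).

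**Figure D4:**
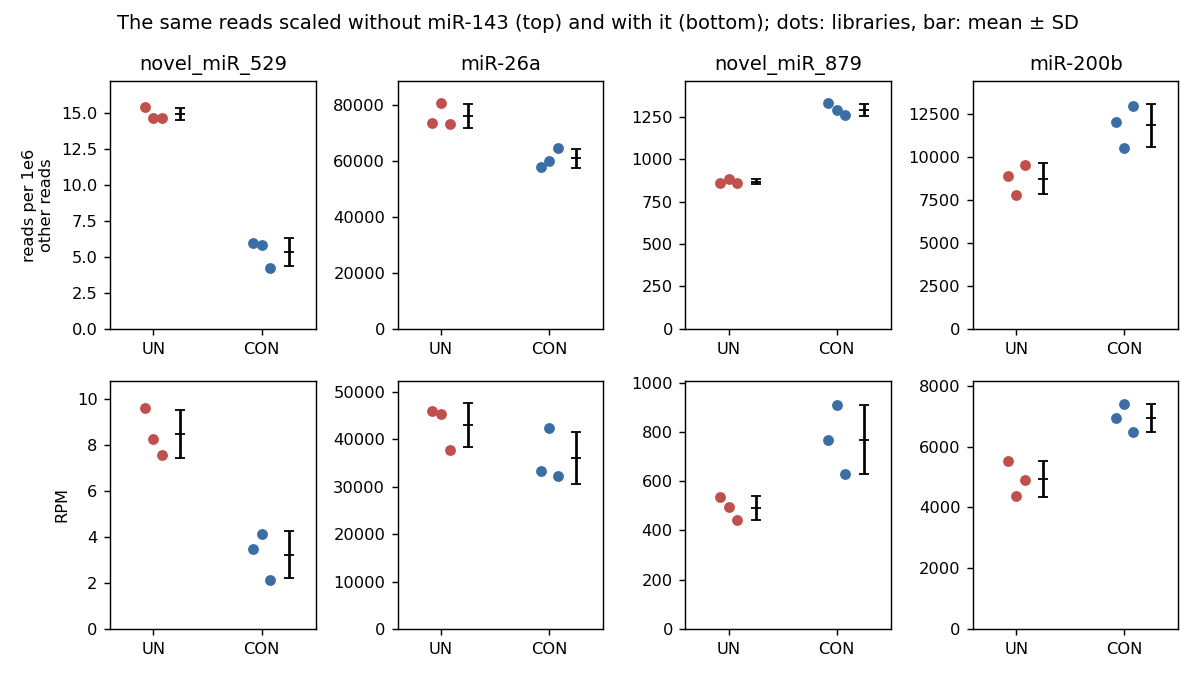
Levels of 4 IDs in UN and CON, as reads per 1000000 other reads (top) and as RPM (bottom); dots are libraries and bars the mean ± SD (n = 3 each). novel_miR_879 has an SD of 13.9 in UN and 35.2 in CON after rescaling, against 47.6 and 140 RPM, and miR-26a overlaps between the groups in RPM only. The 4 IDs are among those with the smallest p on rescaled levels, which favours a narrow spread on that scale.

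Rescaling changed which abundant IDs separated the groups. In RPM, 0 of the 76 were above all CON values in all UN libraries and 8 below, and after rescaling 6 were above and 5 below, with 3 of the lower IDs shared. Over the 566 IDs, 3.00% lay above and 10.2% below after rescaling, and 1.06% above and 12.4% below in RPM. The rescaled counts are 7.89% of the 76 above and 6.58% below, so more of the abundant IDs lay above, and fewer below, than over all IDs, and none of the 11 passed the adjusted threshold. With TMM factors 10 of the 76 lay above and 2 below, where 6.01% and 4.06% of the 566 did.

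miR-26a, a miRNA known from mouse and human as a repressor of the chromatin enzyme EZH2, was the most abundant ID among the 6 higher ones. Another entry lists the same sequence. miR-26a had 73599, 80725 and 73204 rescaled reads in UN, against 57854, 60037 and 64668 in CON, with no overlap. In RPM it had 45867, 45382 and 37700 in UN, against 33399, 42331 and 32318 in CON, where CON replicate 2, the library with the least miR-143, lay above UN replicate 3. The rescaled log2 difference was 0.32 with a standard error of 0.10 (limma, adjusted p = 0.71), and it did not pass. The other higher IDs were novel_miR_484, novel_miR_1092 and 3 IDs of the seed UCACAUU, named after their values were seen.
oar-miR-26a: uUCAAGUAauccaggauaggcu
oar-miR-23a: aUCACAUUgccagggauuucca
oar-miR-23b: aUCACAUUgccagggauu
novel_miR_524: aUCACAUUgccagggauuaccacg
The listed miR-23b is the beginning of both others, so how reads were divided among the 3 entries is uncertain. miR-23b had 3274, 3371 and 3011 in UN, against 2536, 2569 and 2969 in CON (log2 difference 0.26, standard error 0.12, limma, adjusted p = 0.71), and UN replicate 3 was barely above CON replicate 3.

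miR-200b, which helps to keep epithelial cells in their state by repressing ZEB1 and ZEB2, was among the 5 lower IDs. It had 8862, 7751 and 9534 rescaled reads in UN, against 12017, 10491 and 12960 in CON. The log2 difference was -0.44 with a standard error of 0.13 (limma, adjusted p = 0.71), and the groups were apart in RPM and with TMM factors too. The 3 IDs of its seed are shown for comparison.
oar-miR-200b: uAAUACUGccugguaaugaug
novel_miR_962: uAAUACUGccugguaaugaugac
oar-miR-200c: uAAUACUGccggguaaugaugg
novel_miR_962 begins with the whole sequence of miR-200b and was lower in all UN libraries as well, so these entries may share reads. The groups of novel_miR_962 were apart in rescaled levels and in RPM but overlapped with TMM factors (log2 difference -0.17). miR-200a differed by -0.21 and miR-200c by -0.10. With TMM factors miR-200a differed by -0.095, with the groups overlapping, and miR-200c turned to 0.01. For miR-200b, r with the miR-143 ratio was 0.17, and with log2 assigned reads as a covariate it was -0.87.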

How the data were processed

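Small RNA of 3 UN and 3 CON fetal rumens was analysed, 1 library per fetus, and p-values measure the spread between these fetuses. The authors trimmed and quality-checked reads, mapped them to the sheep genome (Bowtie2), and tabulated known miRNAs together with predicted ones. What the authors deposited is RPM, reads per 1000000 listed miRNA reads, in a column named TPM, with no division by length. All values (100%) were whole multiples of the smallest in their library within 0.001 reads, so reads were recovered. The sample labels say rumen while the series title names other gut parts, and labels were followed. The kit in the labels is not the kit in the paper's methods.

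From these reads, shares, ratios and rescaled levels were computed. Groups were compared with limma 3.58.1 (trend) on log2(value + 1) in R 4.3.3, with Benjamini-Hochberg adjustment, over the IDs that edgeR's filterByExpr kept (minimum count 10, minimum total 15). edgeR 4.0.16 and DESeq2 1.42.0 on the recovered reads were alternatives, and edgeR called 1 ID higher and 0 lower. Share and ratio used exact permutation tests over 20 assignments. Likeness used numpy 2.4.6 and 720 pairings. Fits were tested on simulated data. No pair of libraries of the same group agreed within sampling noise, and pairs between UN and CON were not compared. The members and lists were chosen with earlier results of these data known.

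Named are miR-143, entries sharing at least 12 bases or the seed with it, the 10 most abundant other IDs, the 6 highest and 6 lowest r, the 5 smallest p in each direction, and for each cell type list its most abundant member, with all members of the muscle lists. IDs whose groups did not overlap, and seed families, were named after their values were seen.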

Additional observations from a re-analysis of the deposited data

How the results depend on the processing

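The difference of miR-143 kept its sign and stayed above the adjusted threshold under other pseudocounts, no filter, TMM, edgeR and DESeq2, and ranged over single left-out libraries from -0.094 to 0.29 (log2 RPM) and -0.17 to 0.46 (log2 ratio). Without CON replicate 2 it turned to -0.094 and -0.17. Other denominators of the ratio kept its sign. Rescaled IDs higher in UN numbered 0 in RPM, 0 with no filter, 0 with the replicate block, 2 in DESeq2 and 0 to 0 without single libraries, against 1. IDs lower in UN numbered 2 in DESeq2, against 0, and 0 to 0 without single libraries. Of IDs called with DESeq2, novel_miR_529 and novel_miR_76 were higher and novel_miR_879 and novel_miR_775 lower.

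IDs moving with miR-143 (6) and against it (1) numbered 0 and 28 in RPM, 9 and 2 with TMM, 8 and 3 by Spearman rho, 10 and 5 with IDs averaging at least 100, and 13 and 6 centred within groups. Leaving out single libraries gave 2 to 16 and 2 to 6. It gave 3 and 6 when UN replicate 3 was dropped, 10 and 2 for UN replicate 1, 16 and 2 for CON replicate 2, and 2 and 3 for CON replicate 3. Chosen after seeing the data, an adjustment for log2 reads gave 3 and 5, and leaving out the 2 libraries farthest from the median gave 22 and 4. let-7b reversed to r = -0.12 in RPM. Same-numbered libraries deviated together with r of -0.07, 0.07 and 0.19, so the numbers were not taken to pair samples. With the replicate block 7 IDs moved with miR-143 and 1 against it, of which 2 and 0 were among those above, and the miR-143 difference was 0.12.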
